A study of Mus musculus with 8 samples.

Results

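Bone marrow basophils from mice with the transcription factor gene Nfil3 removed were compared with basophils from littermate controls by RNA sequencing. The comparison holds 4 of the 8 libraries of the series, 2 of each genotype, chosen by their titles, and it is described across the 12511 genes tested of 55487 in the files. All mice were of strain C57BL/6J. The genotype labels read wild type for the controls and Nfil3-depleted for the other group, whose titles say floxed out and which is called deficient here. The basophils were sorted as Lineage- CD34- ckit- CD200R3+ MAR1INT cells, where MAR1 is an antibody against the alpha chain of the high-affinity IgE receptor and INT stands for intermediate staining. The other 4 libraries are pre-Baso of both genotypes, sorted with the same markers but high MAR1 staining, and they share the estimate of the spread. The labels give no age and no Cre driver, and they do not say whether the controls carried Cre or how many animals each library holds. The design text calls the 2 libraries of a group biological duplicates, so p-values measure the spread between such duplicates.

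Basophils are rare granulocytes that carry IgE on a surface receptor and release histamine, cytokines and proteases when that receptor is crosslinked. They arise in the bone marrow from granulocyte progenitors, stop dividing as they mature, and depend on the cytokine IL-3 for expansion. NFIL3 is a basic leucine zipper protein that mostly represses transcription, competes with the clock factors DBP, TEF and HLF for D-box DNA sites, and is needed for the development of natural killer and innate lymphoid cells. MCPT8 is a serine protease made almost exclusively by basophils and is widely used to identify them.

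Expression is given as TPM, which divides signal by transcript length and then scales it to one total in every library, and which was summed here over the transcripts of each gene. The 4 basophil libraries held 271.7 to 336 megabases of assigned sequence and protein-coding genes took 19.0% to 21.0% of their TPM. Log2 changes are deficient minus control on log2(TPM + 1), a scale that understates the change of genes near a TPM of 1, and each is given with its standard error (SE). A gene was called at a Benjamini-Hochberg adjusted p under 0.05 in limma. An exact permutation test of 2 against 2 libraries cannot go below p = 0.333. In bulk RNA, fewer cells of a type and less RNA per cell cannot be told apart.

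The libraries of both genotypes had the markers of the sort. The gate gene Cd200r3 stood at 347 and 383 TPM in the control libraries 1 and 2 and at 296 and 362 TPM in the deficient libraries 1 and 2. The IL-3 receptor alpha gene Il3ra had 48.2 and 65.4 TPM in controls and 57.2 and 57.2 TPM in deficient libraries. The 2 genes of negative gates were low, Kit at 0.0335 to 0.641 TPM and Cd34 at 0.276 to 1.33 TPM. Of 11 listed mast cell markers 7 were at 0 in all 4 libraries, among them the connective tissue mast cell proteases Mcpt4, Tpsb2 and Tpsab1. The mast cell chymase gene Cma1 was at 0 in both controls but had 1.17 and 0.646 TPM in the deficient libraries. Cpa3, which is on the basophil list too, had 98.0 to 162 TPM.

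The number 1 libraries of both genotypes stood apart from the number 2 libraries in markers of other cells. The summed TPM of the dendritic cell and MHC class II list, of which 6 of 14 genes were tested, was 794 and 59.6 in control 1 and 2, and 699.8 and 79.4 in deficient 1 and 2. Monocyte and macrophage markers summed to 975, 379.8, 893 and 438 TPM in the same order, and B and plasma cell markers to 481, 35.2, 373 and 42.2 TPM. The MHC class II chaperone gene Cd74 is in both the dendritic and the B cell list. Eosinophil markers were highest in control 1, at 2752 TPM against 106 in control 2. Deficient 1 was also above deficient 2, at 254 against 94.1 TPM. Neutrophil markers summed to 2752 and 1585 TPM in controls and 2418 and 1474 TPM in deficient libraries. The T cell receptor chain gene Cd3e was at no more than 0.121 TPM. Of genes of conventional dendritic cells, Flt3 was at 0 in all 4 libraries, Xcr1 at no more than 0.0423 TPM and Clec9a at no more than 0.245 TPM. Batf3 lay above these levels in the number 1 libraries of both genotypes. It had 3.22 and 0 TPM in control 1 and 2 and 1.54 and 0 TPM in deficient 1 and 2. Both genotypes hold 1 such library. Calls and list medians below are therefore also given without both number 1 libraries. This is done where it ends the call or moves the median by over 1.5 times. Such fits, and those without both number 2 libraries, leave 1 library per basophil group. The spread then comes from the pre-Baso libraries alone, so a call can end there without a smaller change.

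Nfil3 itself checked the labels. It had 20.5 and 22.5 TPM in the control libraries and 0.853 and 1.32 TPM in the deficient ones, so the groups were far apart. It fell by 3.44 ± 0.25 on the log2 scale (SE; limma adjusted p = 0.00151), and the ratio of the means was 19.7-fold. The gene lies at chr13:52967209-52981073 on the minus strand (mm10) and has 2 annotated exons. The 3′ exon, chr13:52967209-52969021, had a mean deposited coverage of 9.78 and 12.0 reads per base in controls and 0.0827 and 0.191 in deficient basophils. The 5′ exon, chr13:52980861-52981073, kept coverage in deficient basophils, at 3.40 and 5.62 against 2.87 and 2.19 in controls. The coverage that remained in the deficient libraries was thus higher at the 5′ exon than at the 3′ exon. Nfil3 was no longer called when 0.1 in place of 1 was added before the logarithm (limma adjusted p = 0.165). It was also not called when TPM was rescaled to protein-coding genes (limma adjusted p = 0.0618). Without both number 1 or both number 2 libraries the Nfil3 call ended too, with changes of -3.34 and -3.53. Over all 22 alternatives its limma adjusted p ranged from 0.000186 to 0.165.

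Over all genes 4 rose, which is 0.032% of those tested, and 3 fell, which is 0.024%. The genes that fell were Mcpt8, Rnase12 and Nfil3, and those that rose were Ctsg, Birc5, Rprl3 and Gm8909. An unadjusted p under 0.05 was reached by 614 genes in the direction of higher expression (4.91%) and 451 of lower expression (3.6%). The 2 deficient libraries lay above both controls for 2154 genes (17.2%) and below both for 2678 genes (21.4%), and 47.9% of all genes had a log2 change above 0. When TPM was rescaled to protein-coding genes, 13 genes were called higher and 3 lower, against 4 and 3 on the deposited scale. The absolute genotype change of the median gene was 0.18, and the absolute difference between replicates of the median gene was 0.20 in controls and 0.22 in deficient basophils. The first is a difference of means of 2 libraries and the others are differences of single libraries, so they are not on the same footing. Correlations across genes, which are not independent replicates, were 0.962 between the control libraries, 0.968 between the deficient libraries and 0.956 to 0.967 between genotypes.

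**Figure D1:**
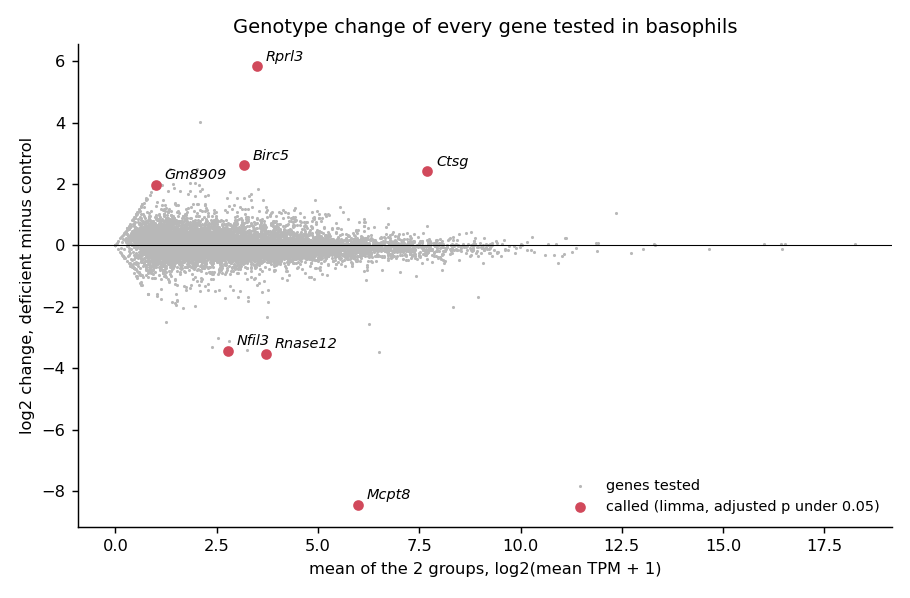
Each grey point is 1 of the 12511 genes tested; the x axis is the mean of the control and deficient levels as log2(mean TPM + 1), the y axis the log2 change, deficient minus control basophils. The 7 called genes are in red: Mcpt8 lies lowest at -8.45 and Rprl3 highest at 5.85.

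Mcpt8 was nearly lost. It stood at 969 and 1400.4 TPM in the control libraries and at 2.73 and 1.98 TPM in the deficient libraries, with no overlap. It fell by 8.45 ± 0.24 on the log2 scale (limma adjusted p = 2.65e-06), a 503-fold difference of the means, and stayed called under all 22 alternatives. Rnase12, a gene of the ribonuclease A family on the same chromosome, had 44.5 and 42.2 TPM in controls and 2.40 and 3.37 TPM in deficient basophils. It fell by 3.52 ± 0.18 (adjusted p = 0.000198), and this call held under all 22 alternatives too. Both genes were also low in deficient pre-Baso, where Mcpt8 had 4.08 and 6.04 TPM against 6244 and 7888 in controls, and Rnase12 had 2.55 and 2.81 TPM against 91.9 and 111.

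Cathepsin G, a serine protease of azurophil granules encoded by Ctsg 0.0177 Mb from Mcpt8, moved the other way. It had 85.1 and 90.4 TPM in controls and 375 and 592 TPM in deficient basophils, so both deficient libraries stood far above both controls. It rose by 2.41 ± 0.21 on the log2 scale (limma adjusted p = 0.00505), 5.51-fold by the means. The call ended with the basophil libraries fitted alone (limma adjusted p = 0.222) and with all low genes kept (limma adjusted p = 0.0659). Without both number 1 or both number 2 libraries the Ctsg call ended too, with changes of 2.70 and 2.13. Over 22 alternatives the adjusted p ranged from 0.000756 to 0.222. Mcpt8 spans chr14:56082166-56085273 and Ctsg chr14:56099881-56102574, both on the minus strand of mm10. The stretches below run from 120 bases before to 30 bases after each gene's RefSeq start (GRCm38.p6) and are shown because these neighbours changed in opposite directions. Capitals mark the 30 bases from the start on, Mcpt8 being chr14:56085168-56085317 and Ctsg chr14:56102545-56102694, both read on the minus strand.
Mcpt8: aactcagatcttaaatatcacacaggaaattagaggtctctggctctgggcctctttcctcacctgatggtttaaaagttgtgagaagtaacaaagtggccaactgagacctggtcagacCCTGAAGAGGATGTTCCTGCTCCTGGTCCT
Ctsg: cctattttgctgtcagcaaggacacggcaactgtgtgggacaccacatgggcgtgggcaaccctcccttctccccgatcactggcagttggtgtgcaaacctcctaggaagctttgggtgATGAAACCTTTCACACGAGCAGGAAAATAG
The D-box, the site NFIL3 is known to bind, was searched as TTACGTAA or TTATGTAA on either strand in windows from 250 bases before to 50 bases after the start. It was in the windows of 0 of the 6 called genes that have one, of 1 of 13 among the 14 protein-coding genes with the highest changes (Icam4) and of 0 of 12 among the 14 with the lowest. It was in 0.886% of the 7565 tested genes with a window and in 1.23% of all 27025 genes with one. A search for letters says nothing of binding.

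Other genes near Mcpt8 also differed. Within 10 Mb of Mcpt8 on chromosome 14, 33 of 160 tested genes had an unadjusted p under 0.05, or 20.6% against 8.51% of all genes, and 3 were called: Mcpt8, Rnase12 and Ctsg. Ang, which encodes the ribonuclease angiogenin, had 5.68 and 6.75 TPM in controls and 2.44 and 1.42 TPM in deficient basophils (-1.32 ± 0.22, limma adjusted p = 0.123). Sdr39u1, a short-chain dehydrogenase gene, had 14.6 and 10.2 TPM in controls and 2.0 and 6.60 TPM in deficient basophils (-1.47 ± 0.38, adjusted p = 0.306). Cma1, the mast cell chymase gene, was listed at 0 in both controls and had 1.17 and 0.646 TPM in deficient basophils. These members near the locus went in both directions. In pre-Baso the changes were -0.84 for Ang, 1.29 for Cma1 and 1.17 for Sdr39u1. Sdr39u1 thus went the other way there. Cre alleles placed in the Mcpt8 gene are in use for deleting genes in basophils. The labels name no driver, so an effect of a Cre allele or of linked DNA on this region cannot be told apart here from an effect of Nfil3 loss.

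Among the 12 tested of 22 genes of granule proteases and granule proteins, Ctsg rose and Mcpt8 fell, and 6 had a change above 0. Unadjusted p under 0.05 was reached by 4 members that were higher (4.91% of all genes) and 1 that was lower (3.6% of all genes). The median change was 0.00 against -0.01 over all genes. Prss34, a basophil tryptase and the most abundant of them, had 2667 and 4617 TPM in controls and 5643 and 9494 TPM in deficient basophils. Its deficient libraries lay above the controls (1.06 ± 0.29, limma adjusted p = 0.324) although the libraries of each group also lay far from each other. Myeloperoxidase, Mpo, had 41.3 and 23.4 TPM in controls and 50.9 and 91.1 TPM in deficient basophils (1.1 ± 0.31, adjusted p = 0.335). The carboxypeptidase gene Cpa3 had 98.0 and 111 TPM against 103 and 162 TPM, and its groups overlapped. Neutrophil elastase, Elane, and proteinase 3, Prtn3, overlapped as well, with Elane at 29.6 and 10.3 TPM in controls and 16.4 and 14.2 TPM in deficient basophils. The median of this list was 0.77 without control 1, -0.44 without control 2, 0.48 without both number 1 libraries and -0.35 without both number 2 libraries. Eosinophil granule genes Prg2 and Prg3 were highest in control 1, and so were Elane, Prtn3 and the granzyme gene Gzmb; their part in the median was not tested. The wider granulocyte progenitor list, 18 of 19 tested, had 11 changes above 0, a median of 0.06 and 1 called gene, Ctsg. Ms4a3, a marker of granulocyte progenitors, had 27.7 and 18 TPM in controls and 31.6 and 46.9 TPM in deficient basophils (0.76 ± 0.26, adjusted p = 0.428). The median of the progenitor list was 0.36 without control 1, -0.05 without control 2, 0.16 without deficient 1, 0.02 without deficient 2, 0.33 without both number 1 libraries and -0.23 without both number 2 libraries.

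Birc5, which encodes survivin, a subunit of the chromosomal passenger complex that acts in mitosis, had 2.60 and 2.50 TPM in controls and 15.1 and 28.4 TPM in deficient basophils. Both deficient libraries lay far above both controls. It rose by 2.61 ± 0.29 on the log2 scale (limma adjusted p = 0.0231), 8.52-fold by the means. The gene spans chr11:117849251-117855743 on the plus strand. The call ended under 11 of 22 alternatives. Among these were a pseudocount of 5 (limma adjusted p = 0.0696), no filter (0.131) and the basophil libraries alone (0.279). The others left out any of the 4 pre-Baso libraries, control 2, deficient 2, both number 1 or both number 2 libraries. The change was 2.59 without control 2 and 2.18 without deficient 2. It was 3.07 without both number 1 and 2.16 without both number 2 libraries. Over all 22 the adjusted p ranged from 0.00388 to 0.279.

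**Figure D2:**
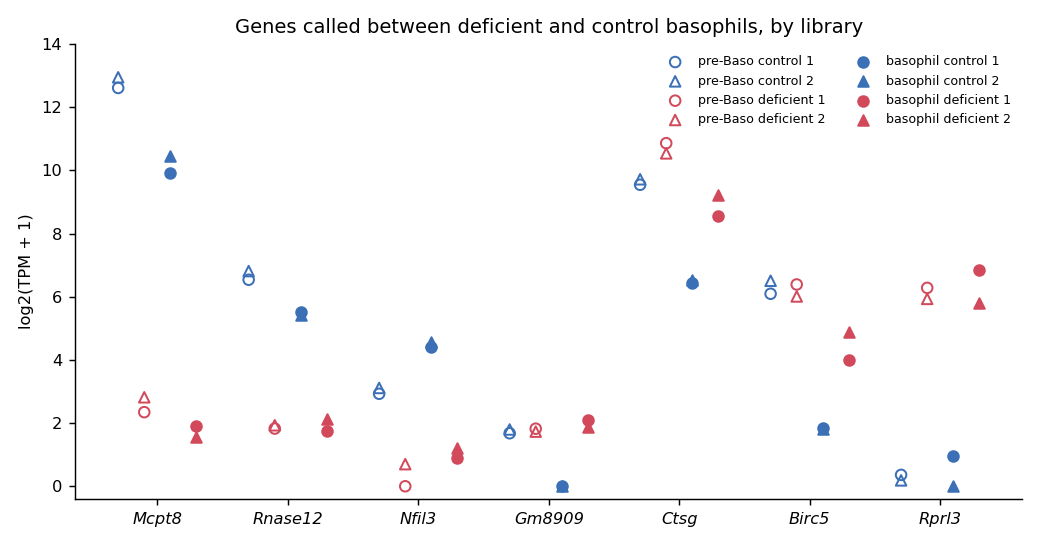
Log2(TPM + 1) of the 7 called genes in all 8 libraries. Open symbols are pre-Baso, filled symbols basophils, blue control and red deficient, circles replicate 1 and triangles replicate 2; Mcpt8, Rnase12 and Nfil3 are low in every deficient library, and Birc5 in deficient basophils lies between control basophils and pre-Baso.

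Lists of G2 and M phase, S phase and histone genes lay higher in deficient basophils. All 65 listed genes of the G2 and M phases were tested, 64 had a change above 0 (47.9% of all genes), and 51 had both deficient libraries above both controls (17.2% of all genes). Birc5 was the 1 gene called, 37 members had an unadjusted p under 0.05 in this direction (4.91% of all genes) and 0 in the other, and the median change was 0.67 against -0.01 over all genes. The kinase gene Cdk1, which drives entry into mitosis, had 3.33 and 1.99 TPM in controls and 6.79 and 7.16 TPM in deficient basophils (1.15 ± 0.23, limma adjusted p = 0.215). Its cyclin partner gene Ccnb2 had 5.16 and 4.39 TPM against 9.76 and 15.0 TPM (1.19 ± 0.24, adjusted p = 0.215). Top2a, the topoisomerase of condensing chromosomes, had 2.96 and 6.95 TPM against 8.93 and 23.4 TPM (1.47 ± 0.43, adjusted p = 0.362), and here the libraries of each group lay more than 2-fold apart. Ube2c, a ubiquitin-conjugating enzyme of the anaphase-promoting complex, had 8.20 and 12.2 TPM against 16.9 and 29.1 TPM. In each of these genes the deficient libraries lay above both controls.

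The size of the cell division difference depended on the library. The summed TPM of the G2 and M list was 206 and 205 in controls, 308 in deficient 1 and 486 in deficient 2. Without deficient 2 the median change was 0.36 and without deficient 1 it was 1.06, and it was 1.05 without both number 1 libraries and 0.36 without both number 2 libraries. With TPM rescaled to protein-coding genes it was 1.1, with a pseudocount of 0.1 it was 1.11 and with a pseudocount of 5 it was 0.26. The direction held in all of these. Pre-Baso, in which these genes are more abundant, had a mean log2(TPM + 1) over the list of 3.42 and 3.77 in controls and 3.43 and 3.50 in deficient libraries. In basophils the means were 1.41 and 1.42 in controls and 1.82 and 2.43 in deficient libraries, so deficient basophils lay between control basophils and pre-Baso.

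The S phase list had 52 of 55 genes tested, with 50 changes above 0 (47.9% of all genes) and 0 called. An unadjusted p under 0.05 was reached by 18 in the higher direction (4.91% of all genes) and 0 in the lower (3.6%). Both deficient libraries lay above both controls for 32 (17.2% of all genes), and the median was 0.47. The ribonucleotide reductase gene Rrm2, which makes DNA building blocks, had 7.52 and 7.15 TPM in controls and 14.4 and 24.5 TPM in deficient basophils (1.25 ± 0.25, limma adjusted p = 0.215). Orc6, of the origin recognition complex, had 2.22 and 2.33 TPM against 4.61 and 5.90 TPM (0.93 ± 0.18, adjusted p = 0.215). The flap endonuclease gene Fen1 had 2.18 TPM in control 1, was listed at 0 in control 2 and had 4.96 and 7.81 TPM in deficient basophils. Its change was 2.02 ± 0.47 (limma adjusted p = 0.261). The median of the S phase list was 0.24 without deficient 2 and 0.73 without deficient 1, 0.77 without both number 1 libraries, 0.22 without both number 2 libraries, 0.78 with TPM rescaled to protein-coding genes, 0.74 with a pseudocount of 0.1 and 0.20 with a pseudocount of 5.

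Core and linker histone genes were higher as well. Of 62 in the annotation 55 were tested, and all 55 had a change above 0 (47.9% of all genes). Both deficient libraries lay above both controls for 51 (17.2% of all genes), and 44 had an unadjusted p under 0.05 in this direction (4.91% of all genes). None was called in limma, and the median was 0.79, with 0.62 to 0.98 over the settings that leave out basophil libraries. H2bc3 had 13.6 and 12.8 TPM in controls and 27.1 and 37.5 TPM in deficient basophils (1.21 ± 0.23, limma adjusted p = 0.195), H3c8 had 7.57 and 8.55 TPM against 16.7 and 20.1 TPM (1.09 ± 0.19, adjusted p = 0.155), and H3c1 had 6.91 and 8.82 TPM against 16.1 and 21.7 TPM (1.16 ± 0.22, adjusted p = 0.195). These core histones supply new chromatin during DNA replication, whereas the linker genes H1f0 and H1f10 in the list are also made outside S phase. Many histone genes are near-identical copies, so the split of reads among them is uncertain.

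Regulators of the G1 phase and inhibitors of cyclin-dependent kinases lay on both sides of 0. Of 22 listed genes 17 were tested, 11 had a change above 0 (47.9% of all genes), and 0 were called in limma. Both deficient libraries lay above both controls for 5 (17.2% of all genes) and below for 3 (21.4% of all genes). An unadjusted p under 0.05 was reached by 1 higher (4.91% of all genes) and 1 lower member (3.6% of all genes). The median was 0.12, with 0.20 without both number 1 and 0.02 without both number 2 libraries. The antiproliferative gene Btg1 had 34.9 and 32.9 TPM in controls and 24.3 and 25.2 TPM in deficient basophils (-0.44 ± 0.16, limma adjusted p = 0.470). The kinase inhibitor gene Cdkn1b had 30.5 and 31.6 TPM against 18.9 and 27.2 TPM. Cdk6, a kinase of G1, had 5.19 and 3.08 TPM against 5.26 and 8.33 TPM (0.60 ± 0.25, limma adjusted p = 0.561).

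**Figure D3:**
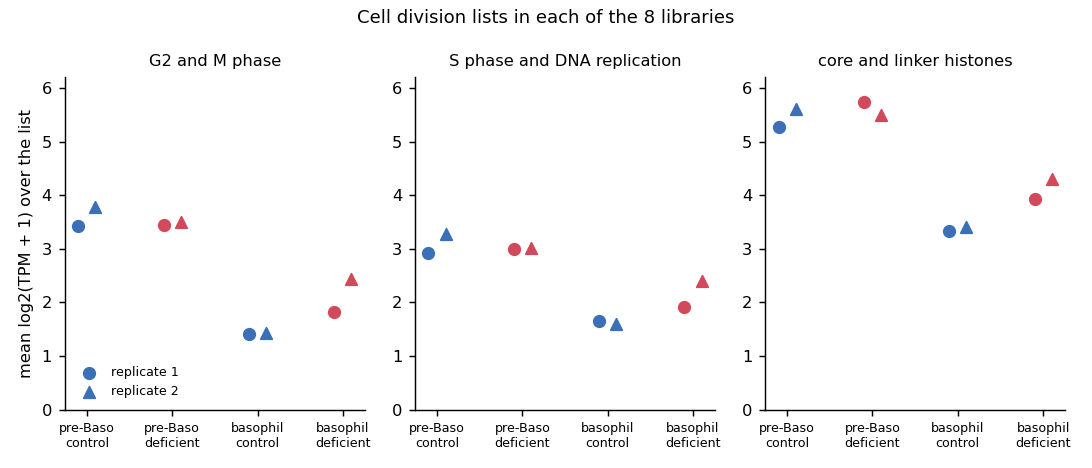
Mean log2(TPM + 1) over the tested genes of 3 lists, 1 panel each, in the 8 libraries by population and genotype; blue is control, red deficient, circles replicate 1 and triangles replicate 2. In G2 and M genes the deficient basophils sit at 1.82 and 2.43, above control basophils at 1.41 and 1.42 and below pre-Baso at 3.42 to 3.77.

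Promoters of mitotic genes often carry a cell cycle genes homology region (CHR), bound by the DREAM and B-MYB complexes, and CCAAT boxes, bound by NF-Y. The CHR was searched as TTTGAA and the CCAAT box as CCAAT, each on both strands, in the windows described above. The CHR was in 36 of 53 tested G2 and M genes with a window (67.9%) and 5 of 41 tested S phase genes (12.2%). It was in 15% of all tested genes with a window and 20.2% of all genes with one. The CCAAT box was in 77.4% of the G2 and M genes, 56.1% of the S phase genes, 43.3% of tested genes and 41.1% of all genes. Both motifs were in 60.4% of the G2 and M genes against 6.35% of tested genes and 7.97% of all genes. The G2 and M list was chosen by function and not by change. Both motifs were in 0 of 6 called genes with a window. They were in 1 of 13 among the 14 highest (7.69%) and 1 of 12 among the 14 lowest (8.33%). For the CHR alone the shares were 16.7%, 30.8% and 8.33% in the same order. The window of Birc5 held neither. Examples follow as 150-base stretches from 120 bases before to 30 bases after the RefSeq start (GRCm38.p6), shown because these genes were higher together in deficient basophils. Capitals mark CHR and CCAAT matches on either strand. The stretches are chr10:69352883-69353032 for Cdk1, chr9:70421525-70421674 for Ccnb2 and chr11:99024160-99024309 for Top2a, all on the minus strand, and chr2:164769809-164769958 for Ube2c on the plus strand.
Cdk1: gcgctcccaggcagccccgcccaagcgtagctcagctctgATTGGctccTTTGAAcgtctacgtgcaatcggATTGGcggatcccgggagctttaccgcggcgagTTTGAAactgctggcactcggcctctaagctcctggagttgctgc
Ccnb2: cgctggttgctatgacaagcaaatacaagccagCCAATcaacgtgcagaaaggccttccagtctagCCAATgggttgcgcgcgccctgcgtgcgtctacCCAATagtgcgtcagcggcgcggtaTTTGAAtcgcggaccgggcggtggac
Top2a: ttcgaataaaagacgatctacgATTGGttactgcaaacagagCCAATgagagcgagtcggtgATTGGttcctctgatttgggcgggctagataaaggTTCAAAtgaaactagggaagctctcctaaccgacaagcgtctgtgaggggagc
Ube2c: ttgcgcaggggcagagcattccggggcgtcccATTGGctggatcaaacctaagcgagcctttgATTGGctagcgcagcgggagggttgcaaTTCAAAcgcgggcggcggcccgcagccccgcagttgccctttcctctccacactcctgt
A match of letters is a description of the window and not a measured site.

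The remaining called genes are less certain in identity. Rprl3, annotated as a ribozyme at chr8:3803069-3803358, had 0.939 and 0 TPM in controls and 114 and 54.8 TPM in deficient basophils and rose (5.85 ± 0.39, limma adjusted p = 0.000983). Its sequence copies the RNase P RNA, whose main gene Rpph1 had means of 883 TPM in controls and 280.1 TPM in deficient basophils (-1.67 ± 0.22, adjusted p = 0.0705), and reads can be assigned to either copy. Rpph1 lies 5.27 Mb from Mcpt8 on chromosome 14, within the 10 Mb window described above. In pre-Baso the changes were 5.83 for Rprl3 and -1.58 for Rpph1. The Rprl3 call ended with the basophil libraries alone (adjusted p = 0.175; range over 21 alternatives 7.89e-05 to 0.175). Gm8909, an MHC class I gene with close copies at chr17:36164443-36168537, was listed at 0 in both controls and had 3.24 and 2.67 TPM in deficient basophils (limma adjusted p = 0.00718). It had 2.2 and 2.48 TPM in control pre-Baso, so the control basophils were the group in which it was not seen. This call ended with the basophil libraries alone (limma adjusted p = 0.222), with a range of 0.00146 to 0.222. It also ended without deficient 1 and without both number 1 or both number 2 libraries. The changes there were 1.88, 1.88 and 2.08, against 1.98 with all libraries.

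Several protein-coding genes among those with the highest changes were not called. Ssbp1, the mitochondrial single-strand DNA binding protein gene, had 6.64 and 3.62 TPM in controls and 17.3 and 23.1 TPM in deficient basophils (1.82 ± 0.28, limma adjusted p = 0.0999). Tcf19, induced at the start of S phase, had 1.73 and 2.11 TPM against 5.37 and 7.55 TPM (1.34 ± 0.20, adjusted p = 0.0973). The gene of the microtubule regulator stathmin, Stmn1, had 5.35 and 7.37 TPM against 14.9 and 25.4 TPM (1.49 ± 0.25, adjusted p = 0.124). Stoml2, a protein of the inner mitochondrial membrane, had 4.82 and 3.67 TPM against 10.8 and 18.4 TPM, and the mitochondrial ribosomal protein gene Mrpl11 had 1.48 and 1.63 TPM against 5.48 and 5.67 TPM. The rule that named these genes required the groups not to overlap. Map4k1, a kinase of lymphocyte signalling, was listed at 0 in both controls and had 2.24 and 8.70 TPM in deficient basophils. Apip and Icam4 were listed at 0 in control 1 alone, at 2.65 and 2.09 TPM in control 2, and had 6.13 and 6.84 TPM and 3.59 and 6.94 TPM in deficient basophils.

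On the lower side, Cnih4, a cargo receptor of the early secretory pathway, had 21.6 and 12.6 TPM in controls and 6.55 and 6.31 TPM in deficient basophils (-1.24 ± 0.27, limma adjusted p = 0.231). Parp10, an ADP-ribosyltransferase gene, had 21.6 and 15.2 TPM against 7.64 and 7.32 TPM (-1.17 ± 0.26, adjusted p = 0.251). Krt18, a keratin gene, had 6.2 and 4.74 TPM against 1.89 and 1.85 TPM (-1.16 ± 0.24, adjusted p = 0.215). In these genes the 2 deficient libraries were close together. Others rested on 1 library: Adamtsl1, of the extracellular matrix, had 14 and 15.4 TPM in controls but 0.964 and 9.06 TPM in deficient basophils, Mylk3 had 8.43 and 11 TPM against 5.68 and 1.73 TPM, and Adnp had 1.84 and 8.71 TPM against 1.15 and 1.16 TPM.

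Genes that mark basophils were measured in 31 of 32 cases. Mcpt8 was the 1 member called, and 8 of 31 had a change above 0. Both deficient libraries lay below both controls for 17 (21.4% of all genes) and above for 2 (17.2% of all genes). Unadjusted p under 0.05 was reached by 6 lower members (3.6% of all genes) and by 1 higher member (4.91% of all genes). The median was -0.16, with -0.25 to -0.15 over the settings that leave out basophil libraries, -0.08 with FPKM and -0.10 with TPM rescaled to protein-coding genes. Fcer1a, the alpha chain of the IgE receptor and the protein whose staining set the gate, had 424 and 279.9 TPM in controls and 245 and 159.9 TPM in deficient basophils (-0.80 ± 0.27, limma adjusted p = 0.421). Number 1 was above number 2 in each genotype, and the groups did not overlap. Of the receptor's other chains, Ms4a2 overlapped at 206 and 203 TPM against 192 and 235 TPM. Fcer1g had 1405 and 1199 TPM against 1198 and 1129 TPM (-0.16 ± 0.15, limma adjusted p = 0.837), with deficient 1 just below control 2. Cd7, a surface protein of the immunoglobulin superfamily, had 245 and 236 TPM in controls and 123 and 118 TPM in deficient basophils (-0.99 ± 0.28, adjusted p = 0.328). The interferon-induced membrane protein gene Ifitm1 had 2344 and 2437 TPM against 1609 and 1578 TPM (-0.58 ± 0.15, adjusted p = 0.312). In both genes replicates lay close together and the groups apart. Gata2, a transcription factor of basophil and mast cell fate, had 254 and 246 TPM in controls and 224 and 334 TPM in deficient basophils, and the histidine decarboxylase gene Hdc, which makes histamine, had 155 and 155 TPM against 135 and 144 TPM.

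Cytokines and their receptors lay mostly below 0. Of 14 tested of 25 cytokine and chemokine genes 3 had a change above 0, and 2 lower ones had an unadjusted p under 0.05 (3.6% of all genes). Both deficient libraries lay below both controls for 8 (21.4% of all genes) and above for 0 (17.2% of all genes). The median was -0.28, with -0.18 without both number 1 and -0.41 without both number 2 libraries. Il4, the signature cytokine of basophils, had 99.4 and 103 TPM in controls and 65.4 and 78.7 TPM in deficient basophils (-0.49 ± 0.15, limma adjusted p = 0.374). The lymphotoxin beta gene Ltb had 105 and 87.0 TPM against 68.1 and 63.7 TPM (-0.53 ± 0.15, adjusted p = 0.355). Of 29 tested of 39 receptor genes 6 had a change above 0, 13 had deficient libraries below both controls, and 4 had an unadjusted p under 0.05 in that direction, beside the same shares of all genes. The median was -0.20, with -0.13 without both number 1 libraries, -0.30 without both number 2 libraries and -0.12 with FPKM. Il7r, which is shared by the IL-7 and TSLP receptors, had 21.1 and 26.1 TPM against 14.5 and 11.4 TPM (-0.82 ± 0.20, adjusted p = 0.288), and the complement receptor gene C3ar1 had 97.2 and 90.7 TPM against 62.0 and 53.1 TPM (-0.70 ± 0.18, adjusted p = 0.308). In neither list was a gene called.

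Signalling, adhesion, interferon and lysosome lists had medians below 0 that depended on the setting. The Fc epsilon RI signalling list had 4 of 23 changes above 0, 14 members with deficient libraries below both controls (21.4% of all genes) and 2 with an unadjusted p under 0.05 (3.6% of all genes). Its median was -0.16, with -0.07 with FPKM and -0.09 with rescaled TPM. Its adaptor gene Lat2 had 134 and 126 TPM in controls and 96.7 and 111 TPM in deficient basophils (-0.33 ± 0.14, limma adjusted p = 0.565). The adhesion and homing list had 7 of 23 changes above 0. In it 10 members lay below both controls (21.4% of all genes) and 2 above (17.2% of all genes). Its median was -0.13, with 0.03 without both number 1 libraries, -0.29 without control 2 or both number 2 libraries and -0.21 without deficient 2. It was -0.07 without deficient 1 or with rescaled TPM and -0.05 with FPKM. Cd44, the hyaluronan receptor gene, had 14.9 and 11.3 TPM against 7.77 and 6.94 TPM (-0.75 ± 0.20, adjusted p = 0.312). Interferon response genes had 4 of 24 changes above 0 and a median of -0.25, which was -0.16 without both number 1 libraries, -0.15 without control 1 and -0.13 with a pseudocount of 5. The nucleotide hydrolase gene Samhd1 stood at 65.4 and 60.1 TPM against 45.6 and 34 TPM (-0.66 ± 0.18, adjusted p = 0.326). The lysosome list had 6 of 31 changes above 0 and a median of -0.16, which was 0.01 without both number 1 libraries, -0.01 without control 1, -0.34 without control 2, -0.09 without deficient 2, -0.27 without both number 2 libraries, -0.08 with FPKM and -0.10 with rescaled TPM. No gene of these 4 lists was called.

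Clock partners and fate factors lay on both sides of 0. Of 20 listed clock and D-box factor genes 9 were tested, Nfil3 was the 1 called, and 3 had a change above 0. Dbp, which competes with NFIL3 for D-box sites, had 2.79 and 3.71 TPM in controls and 3.0 and 5.08 TPM in deficient basophils, and its groups overlapped, as did those of Per1 at 2.9 and 2.36 TPM against 3.21 and 2.69 TPM. Bhlhe40, a repressor of clock genes, had 4.23 and 3.83 TPM against 2.39 and 2.08 TPM (-0.64 ± 0.18, limma adjusted p = 0.355), with both deficient libraries below both controls. Of 24 transcription factors of basophils and mast cells 12 had a change above 0 and 0 were called. The median was 0.01, with 0.08 without both number 1 libraries. Its lowest and highest values were -0.13 without deficient 2 and 0.09 with FPKM. Of 25 survival genes 8 had a change above 0 and 0 were called. Both deficient libraries lay below both controls for 7 (21.4% of all genes) and above for 0 (17.2% of all genes). The median was -0.03, with -0.21 without control 2, -0.17 without deficient 1, -0.06 without both number 1 libraries, -0.09 without both number 2 libraries, 0.00 with rescaled TPM and 0.01 with FPKM. Bcl2l1, which encodes the survival protein Bcl-xL, had 6.57 and 6.45 TPM against 4.25 and 4.52 TPM (-0.48 ± 0.22, adjusted p = 0.595).

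The unfolded protein response list had 20 of 27 changes above 0, 9 members with deficient libraries above both controls (17.2% of all genes), 3 with an unadjusted p under 0.05 (4.91% of all genes), 0 called, and a median of 0.23. The endoplasmic reticulum gene Sdf2l1 had 13.8 and 7.90 TPM in controls and 18.8 and 27.7 TPM in deficient basophils (1.05 ± 0.26, limma adjusted p = 0.288), and the chaperone gene Hyou1 had 1.82 and 1.01 TPM against 2.25 and 4.99 TPM. The median was 0.12 without deficient 2 or control 2, 0.41 without deficient 1 or both number 1 libraries, and -0.03 without both number 2 libraries. Cytosolic ribosomal protein genes had 40 of 84 changes above 0 and a median of -0.0044, which was -0.00067 without both number 1 libraries and 0.06 with rescaled TPM.

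**Figure D4:**
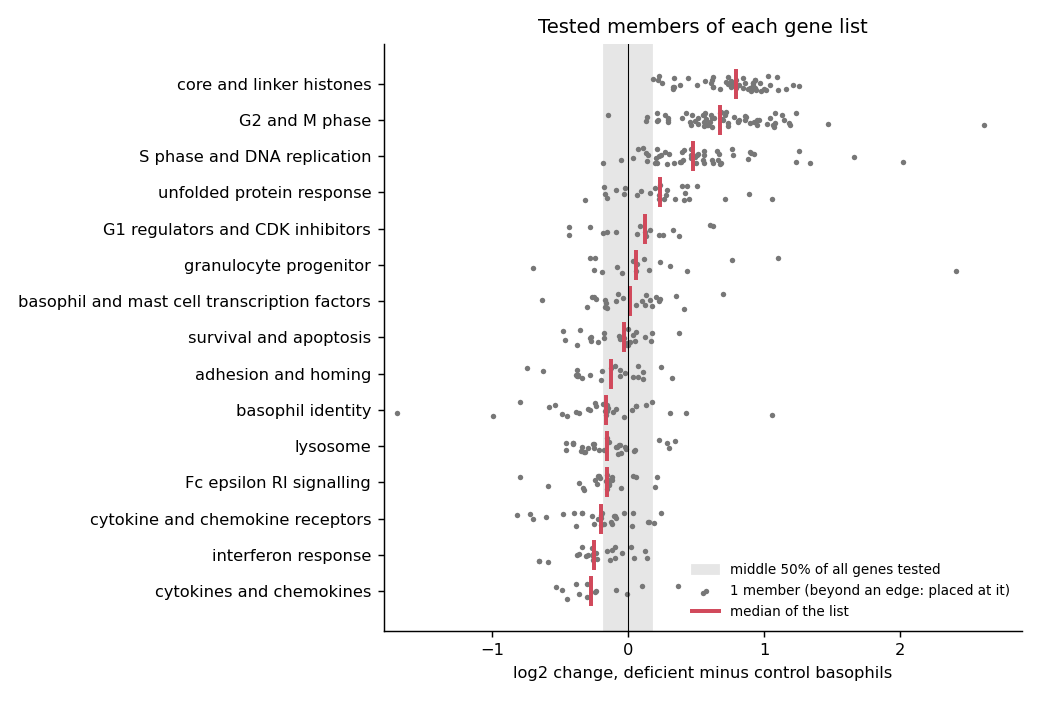
Log2 change, deficient minus control basophils, of the tested members of 15 gene lists; each grey point is a gene, the red bar the median of its list and the grey band the middle 50% of all genes tested. The medians run from 0.79 for histones to -0.28 for cytokines and chemokines; Mcpt8 lies beyond the left edge and is placed at it.

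The genotype effect in basophils was also set against that in pre-Baso. In the interaction test 0 genes were called by limma (smallest adjusted p = 0.536), while 689 genes, or 5.51%, had an unadjusted p under 0.05. In pre-Baso 8 genes were called, and 4 of them were also called in basophils, where 7 were. Birc5 had a change of 2.61 ± 0.29 in basophils and -0.10 ± 0.29 in pre-Baso, with 67.3 and 89.8 TPM in control and 82.7 and 63.4 TPM in deficient pre-Baso (difference 2.71 ± 0.41, limma adjusted p = 0.536). Ctsg had 2.41 ± 0.21 in basophils and 1.07 ± 0.21 in pre-Baso (difference 1.34 ± 0.30, adjusted p = 0.742). The median change of the G2 and M list was 0.67 in basophils and -0.12 in pre-Baso, a difference of lists that was not tested. A difference between the populations was thus not called for any gene.

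Replicates of 1 genotype differed by 2-fold or more on the log2(TPM + 1) scale for 607 genes in controls (4.85%) and 479 genes in deficient basophils (3.83%). In controls 432 of these were higher in number 1 and 175 in number 2, and in deficient basophils 229 and 250. Both groups had such a difference for 190 genes, of which 114 were higher in number 1 of both genotypes and 29 in number 2 of both. Among them were genes of antigen presentation, macrophages and eosinophils. H2-Aa, an MHC class II chain, had 142 and 1.92 TPM in controls and 129 and 6.56 TPM in deficient basophils, and Cd74 had 333 and 7.32 TPM against 302 and 14.1 TPM. The complement gene C1qb of macrophages had 51.7 and 1.23 TPM against 33.0 and 2.81 TPM. In these genes both number 1 libraries were high and both number 2 libraries low. Prg2, the eosinophil major basic protein gene, had 2354 and 19.4 TPM in controls and 152 and 18.9 TPM in deficient basophils, so control 1 was far above all others, and the peroxidase gene Epx had 49.7 and 0 TPM against 2.84 and 0.264 TPM.

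The genotype medians of these lists followed the library that was left out. For eosinophil markers the median was -1.1 with all libraries, 1.02 without control 1, -3.31 without control 2 and -0.03 without both number 1 libraries. For the dendritic cell and MHC class II list it was 0.20, 2.37 without control 1, -1.88 without control 2 and 0.55 without both number 1 libraries. Of the 11 tested eosinophil markers 0 had a change above 0 and 2 had an unadjusted p under 0.05 (3.6% of all genes in the lower direction). Among them was Ccr3, the eotaxin receptor gene, at 4.90 and 4.75 TPM in controls and 2.86 and 2.8 TPM in deficient basophils. Ccr3 did not share the gap between numbers 1 and 2. The part of other cells in these differences was not tested.

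Some genes differed most between the deficient libraries. Rpl23a, a ribosomal protein gene with many processed copies that can take its reads, had 54.2 and 96.8 TPM in controls, was listed at 0 in deficient 1 and had 152 TPM in deficient 2. Rdh5, a retinol dehydrogenase gene, had 3.63 and 1.82 TPM in controls and 1.43 and 48.0 TPM in deficient basophils. Dek, a chromatin protein gene, had 10.8 and 14.3 TPM against 16.7 and 48.8 TPM, and Acbd6 had 21.4 and 19.9 TPM against 4.19 and 27.1 TPM. These 4 genes were chosen as higher in deficient 2. Vamp5, a vesicle fusion gene, went opposite ways, with 11.7 and 40.5 TPM in controls and 47.5 and 10.2 TPM in deficient basophils. In controls, Gnas, which encodes a G protein subunit, had 34.4 and 81.5 TPM against 72.4 and 93.6 TPM in deficient basophils. The G2 and M genes were even between the controls, with a median difference of number 2 minus number 1 of 0.00, and uneven between the deficient libraries, with a median of 0.61 and 9 members at or over 2-fold.

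**Figure D5:**
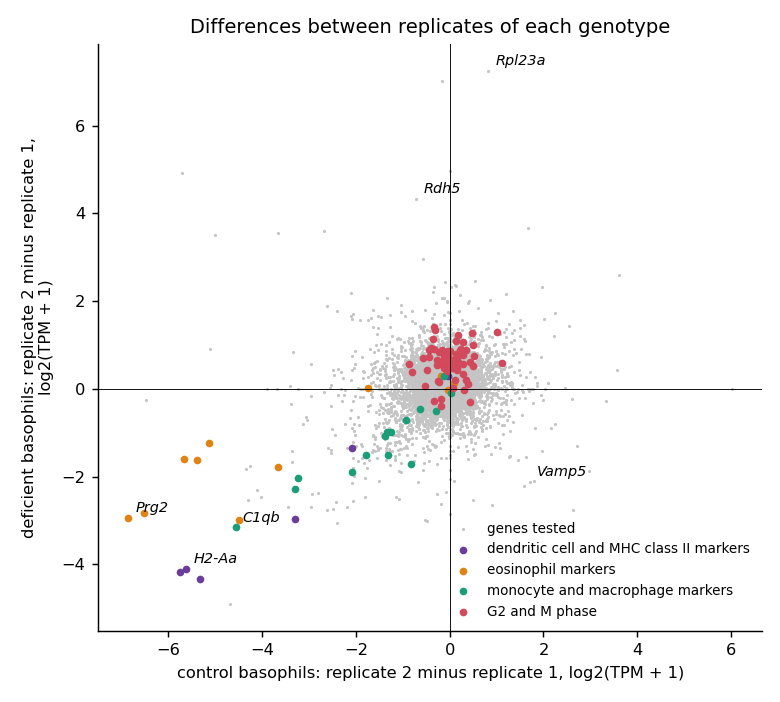
Difference between replicates, number 2 minus number 1 on log2(TPM + 1), in control basophils (x axis) and deficient basophils (y axis) for the 12511 genes tested in grey, with 4 lists in colour. MHC class II and macrophage markers lie at the lower left, high in number 1 of both genotypes, with H2-Aa at -5.61 and -4.10; eosinophil markers extend furthest along the control axis, with Prg2 at -6.85 and -2.94.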

How the data were processed

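RNA was extracted with TRIzol LS and a Direct-zol kit and made into libraries with a SMARTER mRNA-Seq kit, per the labels' protocols. HISAT2, in a version not given in the sources used here, mapped the reads to mm10, and transcripts were quantified with StringTie 2.1.4 against Ensembl release 101, per the submitters' processing notes. The deposited files give TPM, FPKM and mean coverage for each transcript; no strand option is stated, so reads of overlapping antisense genes could be mixed. Transcript TPM was summed per gene here. Testing took genes that reached a TPM of 1 in 2 or more of the 8 libraries and was done on log2(TPM + 1) with limma 3.58.1 (R 4.3.3), with group as the one factor, a variance trend and Benjamini-Hochberg adjustment, after the procedure was tested on simulated data. All 8 libraries shared the spread estimate (4 residual degrees of freedom). Genes were named when called, when among the 14 highest or lowest protein-coding changes with a mean TPM of at least 5, an unadjusted p under 0.05 and no overlap, when leading a gene list by p, or when among the 8 largest replicate differences in a direction. A few others were added after their values were seen. Members and lists were chosen with earlier results of these data known. Alternatives changed the scaling, pseudocount, filter, model and libraries, and those that leave out 2 libraries were added after seeing the data. The files hold no read counts, so no counting interval is given.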

Additional observations from a re-analysis of the deposited data

How the results depend on the processing

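Against 4 genes called higher by limma, there were 13 with TPM rescaled to protein-coding genes, 7 with FPKM, 11 with a pseudocount of 0.1, 10 without a filter on low values, 1 with the basophil libraries alone, 7 without a variance trend and 1 without both number 2 libraries. Against 3 called lower there were 5 with a pseudocount of 0.1, 5 with a pseudocount of 5, 8 without a filter, 5 with a minimum TPM of 5 and 6 without both number 2 libraries. Without both number 1 libraries 3 were higher and 3 lower. Leaving out 1 library gave 3 to 11 higher, the 11 being without control 1, and 3 to 6 lower. The difference between populations called 1 gene with rescaled TPM, 2 with a pseudocount of 0.1 and 0 to 2 without 1 library, against 0; it cannot be fitted on basophils alone. Replicates 2-fold apart numbered 1283 (pseudocount 0.1), 113 (pseudocount 5), 93 (mean TPM of at least 10) and 1101 (rescaled) in controls, and 1140, 77, 72 and 991 in deficient basophils. With a replicate block 4 genes were called higher, 4 lower and 0 for the difference; deviations of same-numbered libraries correlated at 0.20 between the basophil groups and at -0.05 to 0.06 otherwise, so the numbers were not taken to pair samples. Of 208 named genes 142 kept their sign under every alternative run and 66 did not. Rescaling and FPKM shifted the median of all genes from -0.01 to 0.05 and 0.06. The cause of these changes was not tested.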
